A study of Mus musculus with 7 samples.

Results

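Matrix metalloproteinases (MMPs) and tissue inhibitors of metalloproteinases (TIMPs) were examined as 10 genes out of 55487 genes in the count table of cultured mouse liver slices. The genes were chosen by name, with earlier results of these data known. The list held 7 MMP genes (Mmp2, Mmp3, Mmp9, Mmp10, Mmp12, Mmp13 and Mmp14) and 3 TIMP genes (Timp1, Timp2 and Timp3). All 10 were in the table and had counts in at least 1 library.

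The slices were cut from the livers of healthy adult male Balb/c mice and kept in Williams' medium E until day 3. The control cultures (CTR, 3 libraries) received no compound, and the VPA cultures (4 libraries) received 2.5 mM valproic acid, a histone deacetylase inhibitor. Every slice in both groups had been cut, punched and cultured, and uncultured liver was not analysed here. The comparison therefore asks how MMP and TIMP transcripts differ between cultures with and without VPA, in tissue that is wounded by its preparation in either group.

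MMPs are zinc-dependent proteases, made as inactive proenzymes, which cleave collagens, elastin, laminins and other matrix proteins. TIMPs bind the active site of MMPs and block it. In injured liver the stellate cells, which become collagen-producing myofibroblasts, are a known source of Mmp2, Mmp14 and Timp1, and macrophages are a known source of Mmp9, Mmp12 and Mmp13. The membrane-anchored MMP14 cleaves collagen at the cell surface and, with TIMP2 as an adaptor, activates the proenzyme of MMP2.

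Of the members, 4 lie in a cluster on chromosome 9 of GRCm38 (Mmp13, Mmp12, Mmp3 and Mmp10, from 7272514 to 7510240, a span of 238 kb that also holds Mmp1b, with 0 counts in all libraries). The other members are each on a chromosome of their own. The 100 bases before the start site are shown for these 4 genes and for Mmp14, because the 4 genes share a cluster and the AP-1 motif, and Mmp14 was the member with the clearest separation of the groups. The sequences are from RefSeq on GRCm38.p6, + strand, 5′ to 3′. Capitals mark the AP-1 motif TGACTCA, the TATA motif TATAAA and the GC box GGGCGG, each searched on both strands (TGAGTCA is the reverse complement of the AP-1 motif).

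Mmp13 (chr9:7272414-7272513): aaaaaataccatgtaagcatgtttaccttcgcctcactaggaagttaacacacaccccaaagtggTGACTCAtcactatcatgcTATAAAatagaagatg
Mmp12 (chr9:7347274-7347373): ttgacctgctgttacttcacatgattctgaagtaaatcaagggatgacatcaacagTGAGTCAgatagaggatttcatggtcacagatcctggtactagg
Mmp3 (chr9:7445722-7445821): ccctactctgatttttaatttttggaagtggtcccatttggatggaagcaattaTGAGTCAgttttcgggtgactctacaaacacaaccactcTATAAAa
Mmp10 (chr9:7502242-7502341): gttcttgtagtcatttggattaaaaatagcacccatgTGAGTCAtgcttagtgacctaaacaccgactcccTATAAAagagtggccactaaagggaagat
Mmp14 (chr14:54431498-54431597): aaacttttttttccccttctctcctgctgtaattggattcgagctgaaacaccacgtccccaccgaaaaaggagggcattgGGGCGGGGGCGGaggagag

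AP-1 is a family of injury-induced transcription factors. Its motif began at position −35 in Mmp13, −44 in Mmp12, −46 in Mmp3 and −63 in Mmp10, counted from −1 at the base before the start site. It is present in 1.88% of the 32851 promoter windows of this length in the table, against 5.56% for the TATA motif and 24.7% for the GC box. Mmp12 has a second listed start site, upstream, whose window holds none of the 3 motifs. Mmp14 has no match to the AP-1 motif and holds a pair of adjacent GC boxes at positions −19 and −13. Windows were listed for 8 of the 10 members, and those of Timp1, Timp2 and Timp3 held a GC box and no AP-1 match. These are matches of letters and say nothing of binding.

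Depth ran from 1400887 to 4773750 counts per library. Levels are given as CPM, the count scaled to a common library size. For a gene at 0, counting error alone allows a level of 3 counts, equal to 0.591 CPM in the deepest library and 2.41 CPM in the one with the highest floor. Zeros in this table were not all of that kind. Ass1, a urea cycle enzyme of hepatocytes, was listed at 0 in all 7 libraries, Adam15 had 0 counts in VPA replicate 1 and 128 in VPA replicate 4, and C1qa had 0 in VPA replicate 3 and 240 in VPA replicate 2 (genes picked after their values were seen). A gene listed at 0 is therefore given as such, without a bound, and why these zeros arose was not tested. The reads come from the 3′ end of each transcript, so CPM was not divided by length. Given zeros such as that of Ass1, genes may differ in how fully they were counted. An order between genes is therefore an order of reads and may differ from that of transcripts. More genes were detected in the CTR libraries (17744 to 19756) than in the VPA libraries (14359 to 16761), and VPA replicate 2, with 3102450 counts, had fewer detected genes than CTR replicate 3 with 1743675. In bulk tissue, fewer cells of a type and less RNA per cell cannot be told apart.

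In the CTR cultures Mmp14 had the highest CPM of the members, 255 ± 46.9 (SD, n = 3), and none of its values overlapped those of the next gene, Timp2 (165 ± 41.5 CPM). Timp3 (130 ± 2.19 CPM) and Mmp12 (129 ± 14.1 CPM) overlapped Timp2 in range, so the order of these 3 was not separated. Timp1 (89.3 ± 22.3 CPM), Mmp13 (36.9 ± 10.5 CPM) and Mmp3 (11.4 ± 5.10 CPM) followed without overlap between neighbours. Mmp9 (8.26 ± 2.42 CPM) and Mmp2 (8.17 ± 4.27 CPM) overlapped each other and Mmp3. Mmp10 (1.12 ± 1.93 CPM) was lowest. In the VPA cultures Mmp14 (122 ± 15.4 CPM, n = 4) no longer led, and its mean was below those of Timp2 (159 ± 73.3 CPM) and Mmp12 (140 ± 42.9 CPM), with overlapping ranges.

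**Figure D1:**
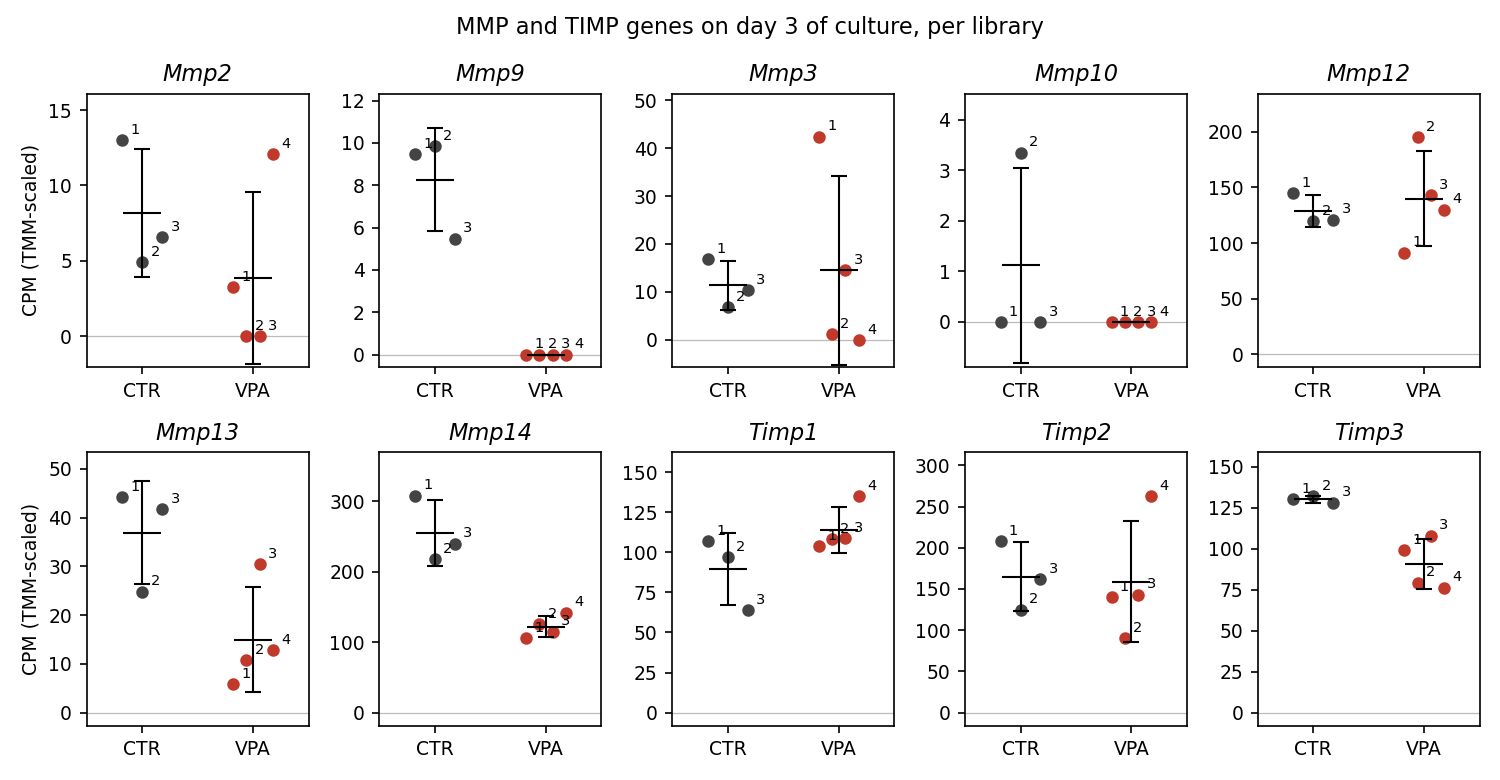
CPM of the 10 members (y axis, scaled by TMM, a normalization of library sizes) in each CTR and VPA library, with a panel per gene on its own scale starting near 0. Points are libraries numbered by replicate, and bars are the mean ± SD of 3 CTR and 4 VPA libraries; Mmp9, Mmp14 and Timp3 are the panels without overlap between the groups.

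Of the 10 members, 8 were counted highly enough for edgeR's test, and none passed an adjusted p of 0.05 (Benjamini-Hochberg over 10876 genes). Over all genes tested, 1 passed, or 0.00919%. At an unadjusted p under 0.05, 3 members (Mmp14, Timp3 and Mmp13) were lower with VPA, where 4.62% of all genes tested were, and 0 were higher, where 3.65% of all genes were. Of the tested members 2 had all VPA libraries below all CTR libraries, against 7.41% of all genes tested, and none had all VPA libraries above, against 4.44%. The members were chosen with earlier results of these data known, so these shares are a description and no test of the set. The median log2 fold change of the 8 was −0.29, beside −0.06 over all genes tested. In DESeq2's Wald test, the method the study used, 2 members were lower at an adjusted p under 0.05, Mmp14 and Mmp9, while 0.754% of the 15261 genes with an adjusted p were called lower.

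The membrane-type collagenase Mmp14 (ENSMUSG00000000957, chromosome 14, 54431612 to 54445364, + strand) showed the clearest separation. It had 308, 218 and 240 CPM in CTR replicates 1 to 3 and 106, 126, 115 and 142 CPM in VPA replicates 1 to 4. All VPA values were thus below all CTR values, and the lowest CTR value was well above the highest VPA value. The CTR mean was 2.09-fold the VPA mean (p = 0.0286 in an exact two-sided permutation test, as low as 3 against 4 libraries allow). On the log2 scale the difference was −1.06 (standard error 0.17, 95% interval −1.47 to −0.65), with an unadjusted p of 0.000362 and an adjusted p of 0.142 from edgeR's quasi-likelihood test. Its adjusted p was 0.000584 with DESeq2, and 0.0314 in edgeR when the test was limited to genes reaching 10 counts in each library. Over all alternatives it ran from 0.000584 to 0.767, the highest being without CTR replicate 1. The gene rests on 3232 counts over the libraries, the most of any member, and no annotated gene overlaps it.

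The collagenase Mmp13 (ENSMUSG00000050578), the principal interstitial collagenase of rodents, had 44.1, 24.8 and 41.7 CPM in CTR cultures against 5.88, 10.8, 30.5 and 12.8 CPM in the VPA libraries. Of the VPA libraries, 3 were below every CTR library, and VPA replicate 3 fell between the lowest and highest of them. Its CTR mean was 2.46-fold the VPA mean, with an exact permutation p of 0.0857. Its log2 fold change was −1.31 (standard error 0.55, 95% interval −2.59 to −0.02) at an unadjusted p of 0.0471 and an adjusted p of 0.592. The unadjusted p depended on the libraries, and was 0.131 without CTR replicate 1, 0.112 without CTR replicate 3, and 0.0693, 0.104 and 0.0917 without VPA replicates 1, 2 and 4. Without VPA replicate 3 it was 0.00389, with a log2 fold change of −1.90.

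The gelatinases Mmp9 and Mmp2 cleave denatured collagen and basement membrane collagen. Mmp9 (ENSMUSG00000017737, chromosome 2, 164940780 to 164955850, + strand) had 24, 50 and 10 counts in CTR replicates 1 to 3 and 0 counts in each VPA library. In CPM these were 9.46, 9.86 and 5.48 against 0, an exact permutation p of 0.0286. No fold is given, since a 0 in this table need not reflect counting error alone. It did not pass edgeR's filter on low counts and so had no test there. With no filter its edgeR p was 0.00194 (adjusted p = 0.367), and with DESeq2 its adjusted p was 0.0193. In the alternatives that tested it the adjusted p ran from 0.0193 to 0.856.

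Of 9599 genes with at least 10 counts in every CTR library, 64 (0.667%) had 0 counts in all VPA libraries. This set has no upper limit on counts, and the share among genes counted at the level of Mmp9 was not taken. The smaller number of genes detected in the VPA libraries moved with the zeros of Mmp9, and its part in them was not tested. Mmp9 is also known from neutrophils, and of 11 neutrophil marker genes 10, S100a8 and S100a9 among them, had 0 counts in every library, with Cxcr2 at most 0.548 CPM. Since Ass1 was at 0 as well in this liver tissue, these zeros do not show that neutrophils were absent.

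Mmp2 (ENSMUSG00000031740) was too sparse to place. It had 13.0, 4.93 and 6.58 CPM in CTR cultures, 3.26 and 12.1 CPM in VPA replicates 1 and 4, and 0 counts in VPA replicates 2 and 3. VPA replicate 4 fell within the CTR range and the other VPA libraries below it. The log2 fold change of −1.11 had a 95% interval from −4.66 to 2.44 (edgeR, adjusted p = 0.942). It was −2.93 without VPA replicate 4, −0.60 without CTR replicate 1, −0.66 without VPA replicate 2 and −0.72 without VPA replicate 3.

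The stromelysins Mmp3 and Mmp10 degrade proteoglycans, laminin and fibronectin and can activate other proMMPs. Mmp3 (ENSMUSG00000043613) had 16.9, 6.90 and 10.4 CPM in CTR cultures against 42.4, 1.23, 14.5 and 0 CPM in VPA replicates 1 to 4. The VPA libraries thus lay on both sides of the CTR range, with the highest and the lowest value of the series among them. Its log2 fold change was 0.34 (95% interval −2.87 to 3.56, adjusted p = 0.976), and −1.17 without VPA replicate 1. Mmp10 (ENSMUSG00000047562) had 17 counts in CTR replicate 2 and none in any other library, so that no difference could be read from it.

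The macrophage elastase Mmp12 (ENSMUSG00000049723) was the member of the chromosome 9 cluster with the most reads. It had 145, 120 and 121 CPM in CTR cultures against 91.4, 195, 143 and 130 CPM in VPA replicates 1 to 4. The CTR range lay inside the VPA range. Its log2 fold change of 0.12 (SE 0.25, adjusted p = 0.960) had a 95% interval from −0.46 to 0.71. The neighbours Mmp13, Mmp12 and Mmp3, each with an AP-1 motif in the windows printed above, thus had log2 fold changes of −1.31, 0.12 and 0.34. Differences between these 3 were not tested.

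Among the inhibitors, Timp3 (ENSMUSG00000020044, chromosome 10, 86300372 to 86349506, + strand), the inhibitor that binds to the matrix, had 130, 132 and 128 CPM in CTR cultures against 99.2, 79.3, 108 and 76.3 CPM with VPA. Every VPA value lay below the CTR values, which were close to each other. The CTR mean was 1.43-fold the VPA mean (exact permutation test, p = 0.0571). In log2 terms the difference was −0.52 (standard error 0.17, 95% interval −0.91 to −0.13) at an unadjusted p of 0.0160 and an adjusted p of 0.474 in edgeR. Timp3 lies within the gene Syn3, on the other strand, which had 34 counts in all against 1880 for Timp3.

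Timp1 (ENSMUSG00000001131, chromosome X, 20870166 to 20874735, + strand), the inducible inhibitor associated with fibrosis, had 107, 97.0 and 64.1 CPM in CTR cultures against 104, 108, 109 and 135 CPM in the VPA libraries. Of the VPA libraries, 3 were above every CTR library, and VPA replicate 1 was within their range. The VPA mean was 1.28-fold the CTR mean (exact permutation p of 0.0571). Its log2 fold change of 0.35 (SE 0.21, adjusted p = 0.759) had a 95% interval from −0.14 to 0.84. Without CTR replicate 3, the lowest control, it was 0.14. It overlaps Syn1 on the other strand, which had 51 counts in all against 1705.

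Timp2 (ENSMUSG00000017466, chromosome 11, 118301069 to 118355740, − strand), the constitutive inhibitor that also serves MMP14, had 208, 125 and 162 CPM in CTR cultures against 140, 90.1, 143 and 263 CPM in the VPA libraries. The VPA range contained the CTR range. Its log2 fold change was −0.05 (SE 0.36, 95% interval −0.90 to 0.79, adjusted p = 0.986), so that a difference of the size estimated for Timp3, in either direction, was within the error.

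**Figure D2:**
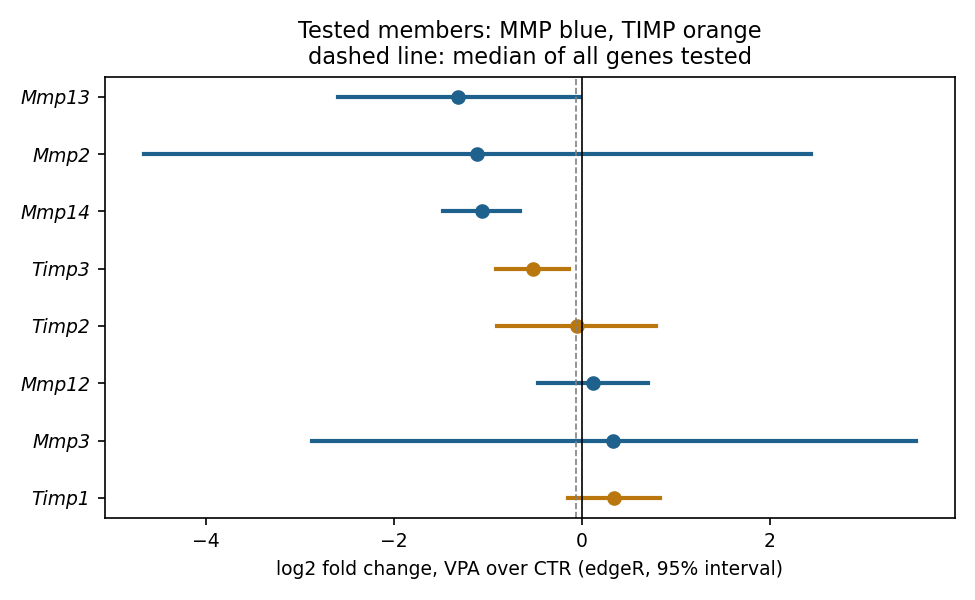
Log2 fold change of VPA over CTR from edgeR (x axis) with its 95% interval for the 8 tested members, MMPs in blue and TIMPs in orange. The intervals of Mmp14 (−1.47 to −0.65), Timp3 (−0.91 to −0.13) and Mmp13 (−2.59 to −0.02) lie below 0, and those of Mmp2 and Mmp3 are the widest.

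The balance between protease and inhibitor reads was described within each library, where library scaling plays no part. MMP reads made up 54.7, 52.3 and 54.6% of the reads on the 10 members in the CTR libraries. In VPA replicates 1 to 4 they made up 42.0, 54.6, 45.6 and 38.5%. The exact (Clopper-Pearson) 95% intervals were narrow, for example 51.9 to 57.2% in CTR replicate 3 and 38.8 to 45.3% in VPA replicate 1, and cover counting error only. Thus 3 VPA libraries were below the CTR range and VPA replicate 2 was within it. The means were 53.9 ± 1.36% (SD, n = 3) and 45.2 ± 6.92% (SD, n = 4). Summed MMP levels were 389 to 537 CPM with CTR and 249 to 334 CPM with VPA, without overlap, whereas summed TIMP levels were 354 to 445 CPM and 277 to 474 CPM.

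Within the MMP reads, Mmp14 gave 57.4, 56.2 and 56.5% of them in the CTR libraries and 42.7, 37.9, 37.9 and 47.8% in the VPA libraries. Mmp12 gave 27.0, 31.0 and 28.4% against 36.6, 58.5, 47.2 and 43.8%. In these shares the groups did not overlap, and VPA replicate 2, the VPA library with an MMP share like that of the controls, was the one with the largest Mmp12 share. The shares are parts of the same total, so they are not independent of each other. In CPM the groups overlapped for Mmp12 (129 ± 14.1 with CTR and 140 ± 42.9 with VPA).

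Ratios of 2 members were taken in the same way, and the pairs were picked after their values were seen. There were 2.12, 1.81 and 1.99 Mmp14 counts per Mmp12 count in the CTR libraries and 1.16, 0.647, 0.803 and 1.09 in the VPA libraries. Mmp14 counts per Timp2 count were 1.48, 1.75 and 1.48 against 0.758, 1.40, 0.803 and 0.540. Timp1 counts per Timp3 count were 0.819, 0.734 and 0.502 against 1.05, 1.36, 1.01 and 1.77. These ratios were picked for the lack of overlap between the groups. Of all 15 pairs among the 6 members with counts in every library, 4 had ratios without overlap, the remaining one being Mmp14 per Timp1, which was lower with VPA. Each of these 4 pairs includes Mmp14 or Timp3, whose CPM alone did not overlap between the groups. The share over pairs of other genes was not counted.

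**Figure D3:**
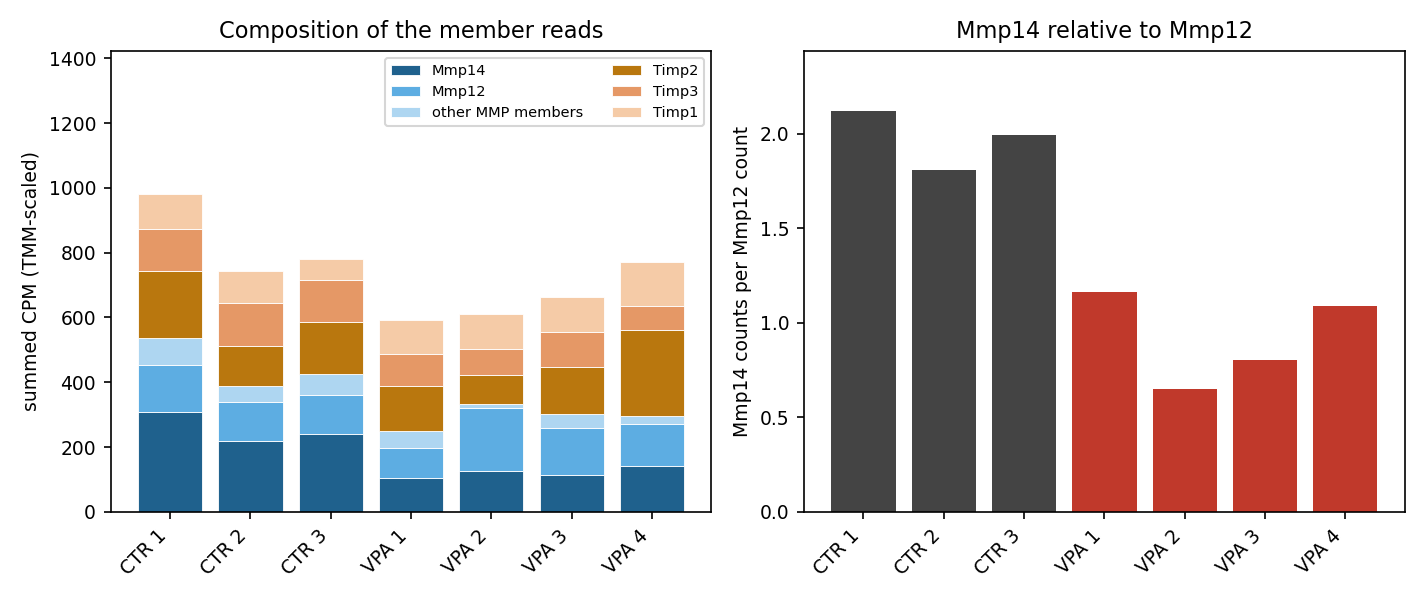
Left, summed CPM of the members in each library (y axis), stacked by gene with MMPs in blue below and TIMPs in orange above; right, Mmp14 counts per Mmp12 count in the same libraries, a pair picked after its values were seen. The ratio is 1.81 to 2.12 in the 3 CTR libraries (grey) and 0.647 to 1.16 in the 4 VPA libraries (red).

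Cells that are known to express the members were followed by marker genes. Of 15 stellate cell and fibroblast markers, 12 were lower and 3 higher with VPA, 4 of them lower at an unadjusted p under 0.05, with a median log2 fold change of −0.92. Over all genes tested 54.2% were lower, and 4.62% were lower at an unadjusted p under 0.05. Their summed level was 3281 to 6348 CPM in CTR cultures against 2365 to 4132 CPM in the VPA libraries, with overlap. Col1a1, the fibrillar collagen chain, had 723 ± 218 and 229 ± 38.9 CPM (adjusted p = 0.112), and Sparc, a collagen-binding matricellular protein, had 1610 ± 365 and 782 ± 201 CPM (adjusted p = 0.295). Dcn, a proteoglycan of the same cells, had 848 ± 386 and 1204 ± 489 CPM (adjusted p = 0.892). No marker of the list passed the adjusted threshold in edgeR, whereas DESeq2 called 3 of the 15 lower, Col1a1 (adjusted p = 4.39e-07), Col1a2 (0.000539) and Sparc (0.00962). Over all genes with an adjusted p in DESeq2, 0.754% were called lower. The part of stellate cells and fibroblasts in the Mmp14 and Mmp13 values was not tested.

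Of 10 tested macrophage markers 4 were lower and 6 higher, with a median of 0.16, and their summed level of 444 to 570 CPM with CTR lay within the 422 to 777 CPM of the VPA libraries. Among them Cd68 had 87.8 ± 26.9 and 138 ± 43.2 CPM, Ctss 74.4 ± 4.53 and 82.7 ± 16.1 CPM, and Lyz2 84.2 ± 7.48 and 60.7 ± 26.1 CPM. The defining markers Adgre1 and Marco had 0 counts in every library. Endothelial markers were lower in 7 of 8 tested genes, with a median of −1.0 and summed levels of 279 to 303 CPM against 69.2 to 259 CPM, without overlap. The marker with an unadjusted p under 0.05 was Tek, the angiopoietin receptor, with 13.0, 16.0 and 16.4 CPM in the CTR libraries and 0 counts in every VPA library (edgeR, p = 0.00121, adjusted p = 0.239; DESeq2, adjusted p = 9.61e-05; exact permutation p = 0.0286). Tek passed edgeR's filter through its CTR counts alone, and a 0 in this table need not reflect counting error alone. Its p-values are therefore given as a description and not as support for the list. Of the others Cdh5 had 73.8 ± 7.66 and 14.0 ± 16.3 CPM, with 0 counts in VPA replicates 1 and 2, Kdr 74.8 ± 6.03 and 60.9 ± 53.0 CPM, and Pecam1 54.1 ± 13.0 and 35.2 ± 21.8 CPM. In VPA replicates 1 to 4 the endothelial sums were 69.2, 259, 84.3 and 167 CPM, 139 CPM of the second being Kdr, beside Timp3 levels of 99.2, 79.3, 108 and 76.3 CPM. The part of these cells in the Timp3 values was not tested. Hepatocyte markers (8 of 11 tested higher, median 0.44) summed to 6848 to 19735 and 5325 to 17259 CPM, led by Trf, Ahsg and Alb. Cholangiocyte markers (3 of 5 tested lower, median −0.16) summed to 439 to 721 and 276 to 786 CPM, led by Spp1, Sox9 and Cldn4. Of these Cldn4, a tight junction protein, had 156 ± 46.8 and 36.1 ± 12.8 CPM without overlap (adjusted p = 0.142 in edgeR and 9.61e-05 in DESeq2).

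The rest of the pathway was taken from 8 lists, whose counts are to be read against the 54.2% of all tested genes that were lower and the 4.62% that were lower at an unadjusted p under 0.05. Of 16 further MMP genes, 7 had no counts in any library and none was counted highly enough to be tested. The most abundant was the membrane-anchored Mmp17, with 1.25 ± 1.12 CPM with CTR and 7.92 ± 8.61 CPM in VPA libraries, and with 0 counts in 1 library of each group. Several of these genes had counts in few libraries only. Mmp7, a matrilysin of bile duct epithelium, had 89 counts in CTR replicate 2, 10 in VPA replicate 2 and none elsewhere, and Mmp24 had 49 and 74 counts in the same libraries and none elsewhere. Mmp11 had 34 counts in CTR replicate 1 and 29 in VPA replicate 2. These 3 genes were picked after their values were seen, and in each of them a library with 29 or more counts stood beside others of the same group with 0.

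Among 14 genes of plasminogen activation, the protease cascade that activates proMMPs, 8 of 9 tested were lower (median −0.44) and 1, Anxa2, passed an unadjusted p of 0.05. This cell-surface plasminogen receptor had 581 ± 224 CPM with CTR and 274 ± 111 CPM in VPA libraries, or −1.09 on the log2 scale (SE 0.38, adjusted p = 0.529). Among 17 genes that process proMMPs or hold them at the cell surface, 12 of 16 tested were lower (median −0.25), 3 of them at an unadjusted p under 0.05. These were Cd63, a tetraspanin that binds TIMP1 (760 ± 80.3 and 468 ± 71.2 CPM, adjusted p = 0.295), Cd44, the hyaluronan receptor that docks MMP9 and MMP14 (61.5 ± 2.62 and 38.6 ± 7.79 CPM, adjusted p = 0.458), and the tetraspanin Cd151 (200 ± 60.0 and 130 ± 19.3 CPM, adjusted p = 0.565). For Cd63 and Cd44 the groups did not overlap.

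All 6 tested ADAM genes were lower (median −0.43), beside 54.2% of all genes, among them Adam12, a protease of activated stellate cells, with 11.4 ± 4.09 and 1.09 ± 1.27 CPM (adjusted p = 0.561), and the widely expressed sheddase Adam10, with 57.8 ± 14.8 and 48.9 ± 23.9 CPM. Of 9 tested ADAMTS and astacin genes 8 were lower (median −0.53). Bmp1, which removes the C-propeptide of procollagen, had 99.9 ± 22.5 and 48.4 ± 24.2 CPM (adjusted p = 0.561), and the aggrecanase Adamts4 had 24.5 ± 8.34 and 13.1 ± 2.27 CPM (adjusted p = 0.592).

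In the list of further inhibitors 2 of 4 tested genes were lower and 2 higher. The gene with an unadjusted p under 0.05 was Pcolce, which is known to enhance the action of Bmp1 on procollagen rather than to inhibit MMPs. It had 34.3 ± 15.8 CPM with CTR and 1.69 ± 3.38 CPM in VPA libraries, where 22 counts in VPA replicate 2 were the only ones (log2 fold change −4.04, standard error 1.33, adjusted p = 0.487). The general protease inhibitor Pzp led the list in level, with 241 ± 214 and 157 ± 129 CPM. The TIMP relative Timp4 had at most 17 counts and was not tested.

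Of 8 tested cathepsins and cystatins 7 were higher with VPA (median 0.29), and their summed level was 2350 to 2519 CPM in CTR cultures against 3133 to 4672 CPM in the VPA libraries, without overlap. Ctsl, a cysteine protease that can cleave collagen and elastin in acid compartments, had 517 ± 131 and 1397 ± 573 CPM, or 1.43 on the log2 scale (SE 0.35, unadjusted p = 0.00388, adjusted p = 0.320) with all VPA libraries above all CTR libraries. The last list held cytokines and growth factors that induce MMP genes, with some of their receptors. All 9 tested genes of that list were lower (median −0.23), beside 54.2% of all genes, with Hgf at −0.01 and Tgfb3 at −0.09 close to no difference. None had an unadjusted p under 0.05 in edgeR, with Pdgfa highest at 68.0 ± 11.4 and 52.8 ± 15.4 CPM. In edgeR none of the genes on the 8 lists passed the adjusted threshold, while DESeq2 called Ctsl higher (adjusted p = 0.00755) and Cd63 lower (adjusted p = 0.0202). Over all 15261 genes with an adjusted p, DESeq2 called 154 in either direction and 0.754% lower.

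**Figure D4:**
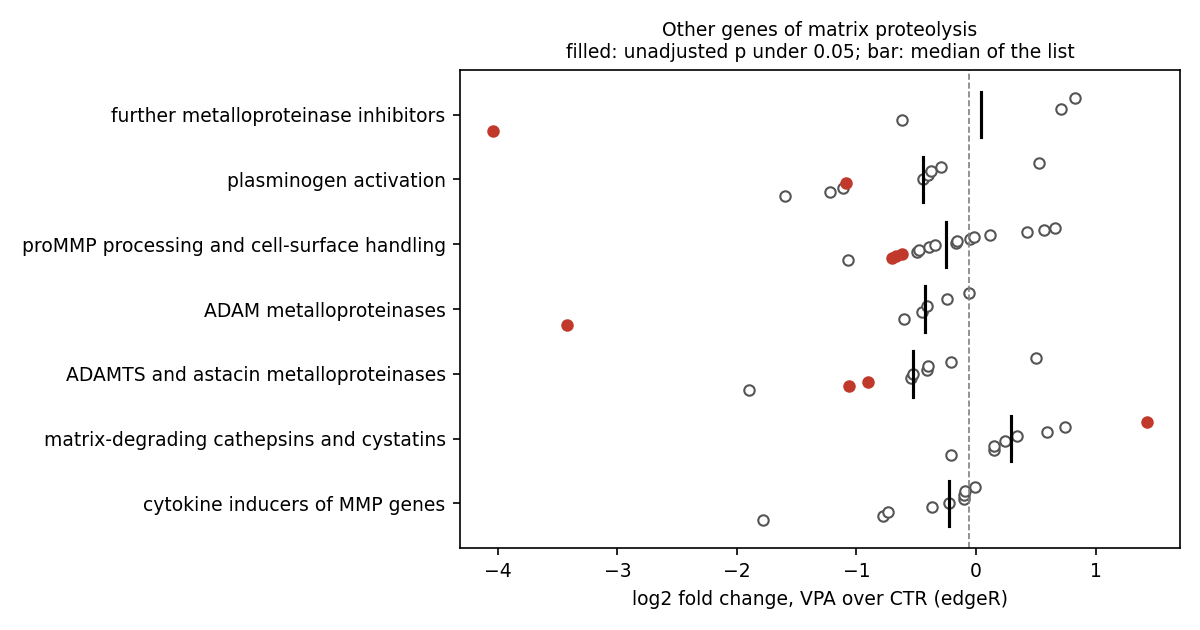
Log2 fold change of VPA over CTR from edgeR (x axis) for each tested gene of 7 pathway lists (rows); filled points had an unadjusted p under 0.05, short bars are list medians and the dashed line is the median of all genes tested (−0.06). The medians run from −0.53 for the ADAMTS and astacin genes to 0.29 for the cathepsins and cystatins.

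The genes most like the pair of most abundant members were taken from 6391 genes with a mean of at least 20 CPM, by Pearson's r of log2 CPM over the 7 libraries, as a description. For Mmp14 they were Adgrl2, Nfix, Nap1l1, Tpm3 and Cdk17 (r from 0.969 to 0.973), with log2 fold changes between −0.68 and −0.48. For Timp2 they were Smim7, Ddr2, Fnbp1, Shoc2 and Cops5 (r from 0.946 to 0.972), with log2 fold changes between −0.16 and 0.03. The 7 points include both groups and differ in depth, so a difference between the groups enters each r.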

How the data were processed

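RNA of day 3 slice cultures (3 CTR and 4 VPA libraries) was prepared by the authors as 3′ end libraries, read single-end, trimmed, and mapped with STAR to GRCm38, with StringTie for assembly. The authors deposited raw counts per Ensembl gene without normalization. The counting program, its use of strand and its treatment of multi-mapping reads are not given in the sources used here, so reads of Timp1 and Timp3 and of the genes Syn1 and Syn3 on the other strand cannot be told apart. The reads carry no stated molecular identifiers, so floors and intervals cover counting error only. Depth was 1400887 to 4773750 counts per library.

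Symbols were given to 55141 of the 55487 genes, and coordinates came from GENCODE vM21. With R 4.3.3, edgeR 4.0.16 was used for TMM normalization, its filterByExpr filter, and a robust quasi-likelihood fit and test with condition as the only term, over 10876 genes, p-values being adjusted by Benjamini and Hochberg (threshold 0.05). Standard errors are the log2 fold change divided by the square root of the F statistic. CPM are counts scaled to TMM-adjusted library size, and log2 CPM has a prior count of 2. Single values were compared by a two-sided exact permutation test over 35 assignments of the libraries, whose smallest p is 0.0286. Alternatives were DESeq2 1.42.0 (the study's tool), limma 3.58.1 with voom, other normalizations and filters, no robust dispersion, replicate blocks, and leaving out each library. The code was tested on simulated data.

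The 10 members, the pathway lists and the marker lists, written from general knowledge, were chosen with earlier results of these data known. Named by rule beside the members were, per pathway list, up to 4 genes with the smallest unadjusted p under 0.05 and the most abundant gene, per marker list the 3 most abundant genes, and the 5 genes most correlated with each of the 2 most abundant members. Further genes were named outside this rule after their values were seen. Among them were Tek for its small p, Col1a2 for its DESeq2 call, Adgre1 and Marco for their 0 counts, and Hgf and Tgfb3 as close to no difference. Each library counts as 1 replicate by its label. Pairs within a group differed by more than sampling noise (chi-square per degree of freedom 13.0 to 24.3). The study's methods define a biological repeat as a separate liver, but the labels do not tie each library to a liver. p-values measure the spread between these libraries.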

Additional observations from a re-analysis of the deposited data

Results flagged for a closer look

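Timp1 in VPA replicate 4 (135 CPM) stood far from the other VPA libraries, which had 104 to 109 CPM. The gap was 0.846 of the range of the group, above Dixon's critical value for 4 samples. It was the only such value among 9 measures of the VPA libraries, and chance gives about 0.05 of such groups.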

How the results depend on the processing

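No member passed an adjusted p of 0.05 with limma-voom or, in edgeR, with RLE or upper quartile normalization, no filter, no robust dispersion, either block, or any library left out. DESeq2 called 2 (Mmp14 and Mmp9) and the filter of at least 10 counts in every sample called 1 (Mmp14); for DESeq2 the cause was not tested, and the filter left fewer genes to test. The count of genes called in the table, 1 as reported, was 154 with DESeq2, 10 with no filter and 36 under that stricter filter, and 0 to 2 with a library left out. Members lower at an unadjusted p under 0.05 numbered 1 (Mmp14) with the replicate number as block, where edgeR gave Timp3 0.0521 and Mmp13 0.0721; elsewhere the number stayed within 1.5 times of 3.

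Direction changed for 3 members, none of them called in any fit. Mmp3 was −1.59 with limma-voom, −2.16 with the slice culture number and −0.07 with the replicate number as block, and −1.17 to 0.75 with a library left out. Mmp12 ran from −0.08 to 0.28 and Timp2 from −0.41 to 0.15 with a library left out. Mmp14 kept its direction in every fit.

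Libraries of the same slice culture number (71, 72 and 74) deviated together by r = 0.107, 0.0256 and 0.0546, and those of the same replicate number by −0.0539, 0.0546 and 0.107, and the numbers were not taken to pair them. The labels do not say whether a slice culture number marks the same liver, in which case the block would be the paired design. By that number Mmp13 was lower with VPA in all 3 pairs (41.7 and 30.5, 44.1 and 12.8, 24.8 and 10.8 CPM) and Timp1 higher in all 3 (64.1 and 109, 107 and 135, 97.0 and 108 CPM). Both members were picked after their values were seen, and the share of all genes with 1 direction in all 3 pairs was not counted. With either replicate block the count of genes called was 0. For Mmp14 the log2 fold change was −0.99 (adjusted p = 0.494) with the slice culture number and −1.13 (adjusted p = 0.443) with the replicate number. Mmp2, Mmp3, Mmp9 and Mmp10 had only 17 to 184 counts over all libraries. For Mmp3 the libraries also differed at like depth, with 65 counts in VPA replicate 1 and 0 in VPA replicate 4. Mmp2 was −2.80 with limma-voom and −3.20 and −4.07 with the slice culture and replicate number blocks.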
